A study of Mus musculus with 14 samples.

Results

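The cells described here are the DP cells at the coverage level of the tumor genome, 219 of the 450 DP cells and of the 648 cells profiled. They were selected on a measured value, the median of the deposited coverage over chromosomes 1 to 19, which had to lie from 2.7 to below 4.7. Of them, 148 belonged to C batches and 71 to P batches. The study sorted single cells from blood, lung and culture, amplified each genome by MALBAC, which copies the DNA of 1 cell in looping cycles, and gave coverage per genome bin. B16F10 is a mouse melanoma line, from the C57BL/6J strain, that spreads to the lung. All C and P batches came from female C57BL/6J mice aged 6 to 8 weeks that had received labelled B16F10 cells and no drug. The labels give both batch series the same strain, sex, age and treatment. What C, P and DP stand for is not given in the sources used here. Neither is it stated whether a batch is 1 mouse, or whether C1L, C1N and C1R share an animal, so every p below measures the spread between these batches, which may be technical. Set beside the members were 43 circulating tumor cells (CTC) of the C batches, 22 cells of the B16F10 culture, 21 white blood cells (WBC) of naive mice and 24 PltLike control cells. The labels call PltLike naive in treatment, and the values go against that, since 24 of 24 had the tumor genome (score from 0.798 to 1.02, on the scale given below). P batches held no CTC.

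Tumor lines such as B16F10 are aneuploid, meaning that their chromosomes are not all present in the same number. When a chromosome is missegregated at mitosis, its daughter cells gain or lose it whole, and when it breaks, a segment alone changes dose. Cells that descend from 1 such cell share the change, so a tumor can hold several subclones that differ in a few chromosomes. Coverage of a cell divided by its own autosomal median shows relative dose, not absolute copies. Whole-genome amplification is also uneven along the genome, and libraries prepared alike can share that unevenness.

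Values below are log2 coverage relative to the autosomal median of the cell and to naive WBC, so that 0 is the host level. The batch was the unit of comparison, with 26 member cells in C1L, 6 in C1N, 15 in C1R, 34 in C2R and 67 in C3R, against 36 in P1, 25 in P2 and 10 in P4. C2N held 15 DP cells and no member, so 5 C batches stood against 3 P batches. All C members came from blood except 4 lung cells of C2R, whereas 27 members of P1 and all 25 of P2 came from lung. Members had coverage medians from 3.52 to 3.85, and the DP cells just outside the window stood at 2.44 and 5.43. The label was checked by a tumor score, the slope of the cell's copy-number profile on that of the line, scaled so that naive WBC average 0 and culture cells 1. It exceeded 0.5 in 219 of 219 members, with a range from 0.663 to 1.18. Culture cells ranged from 0.886 to 1.11 and naive WBC from -0.037 to 0.036. Of the members below 0.75, 0 were C cells (upper limit 2.03%) and 3 were P cells. Read depth per cell is unknown. Bin-to-bin noise, which depends on depth, averaged 0.168 ± 0.0121 in C batches and 0.187 ± 0.0115 in P batches (SD, n = 5 and 3).

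Whole chromosomes were compared first. Both batch series showed the gains and losses of the line, and 0 of 20 chromosomes passed a false discovery rate of 5% by limma (0% called). The smallest adjusted p was 0.0883. Chromosome 14, low in the line, averaged -0.35 ± 0.0331 in C batches and -0.37 ± 0.0158 in P batches. Chromosome 18 stood at -0.33 ± 0.0282 in C batches and -0.34 ± 0.0174 in P batches (SD, n = 5 and 3 batches). X averaged -1.02 ± 0.0266 in C batches and -1.02 ± 0.0281 in P batches, a difference of 0.00030 with a 95% interval from -0.045 to 0.046. The line has a higher proximal and a lower distal level on X, and this median lies between them. It can therefore miss a difference in either part, and distal X, compared below, differed by -0.11. The plot of chromosome levels by batch shows both series beside the culture.

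**Figure D1:**
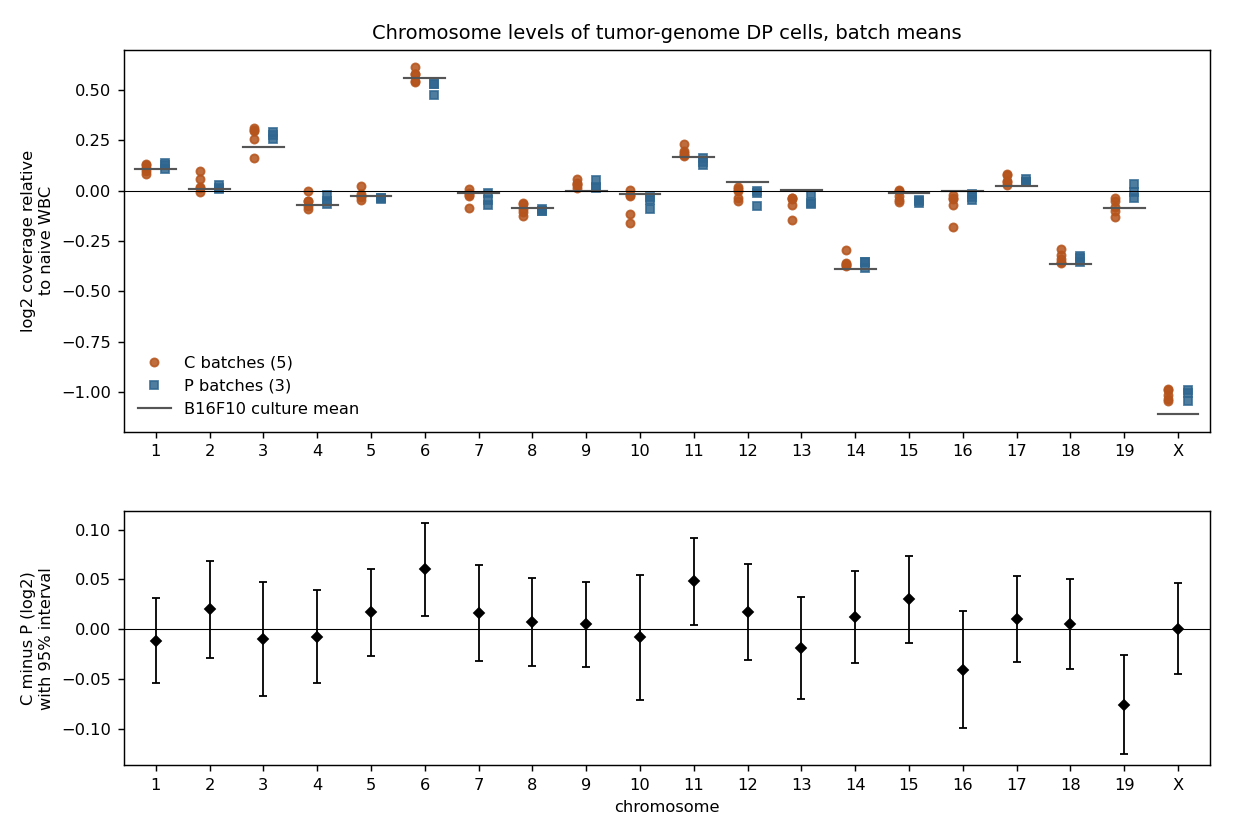
Upper panel: batch means of the chromosome level (log2 coverage relative to naive WBC) for 5 C batches (circles) and 3 P batches (squares), with the B16F10 culture mean as a line. Lower panel: C minus P difference with its 95% interval from limma. Chromosomes 6, 11 and 19 have intervals that leave out 0, and 0 of 20 pass after adjustment.

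Chromosome 6, the chromosome the line gained most, stood at 0.54 in C1L, 0.61 in C1N, 0.58 in C1R, 0.58 in C2R and 0.55 in C3R, against 0.53 in P1, 0.53 in P2 and 0.47 in P4. Every C batch lay above every P batch, C1L by the narrowest margin. The difference was 0.060 (95% interval 0.013 to 0.107, limma adjusted p = 0.149, exact permutation p = 0.0357, the smallest that 56 splits allow, and 0.357 after adjustment over 20 chromosomes). With C1L, C1N and C1R averaged into 1 batch, since they may share an animal, chromosome 6 passed limma's 5% (0.056, adjusted p = 0.0387). The culture mean was 0.56 and the CTC mean over batches 0.56.

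Single cells showed part of this gap as a few cells with less chromosome 6. Cells at least 0.2 below the culture median on chromosome 6 numbered 1 of 148 in C batches, in C3R, against 7 of 71 in P batches, namely 4 of 36 in P1, 2 of 25 in P2 and 1 of 10 in P4. This direction was singled out after the values were seen, and the planned test of cells off the culture level in either direction gave exact p = 0.286 for chromosome 6. To see whether whole chromosomes were affected, the bins of a chromosome were split into proximal, middle and distal parts of equal number. In those 7 P cells the deficit ran along the chromosome, at -0.29 in the proximal, -0.27 in the middle and -0.23 in the distal part relative to the culture, and it exceeded 0.1 in every part of every cell. The culture held 1 such cell of 22 and the CTC held 0 of 43 (upper limit 6.98%). Of the PltLike control cells, 3 of 24 lay at least 0.2 below the culture median on chromosome 6, so low cells were not particular to P batches. Conversely, 3 of 148 C cells and 0 of 71 P cells lay at least 0.2 above the culture on chromosome 6. Without the cells off the culture level on this chromosome, batch means were 0.56 ± 0.0182 in C batches and 0.54 ± 0.0352 in P batches, a difference of 0.027, and the groups overlapped. That last value leaves cells out by the measure itself and carries no test.

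Chromosome 19 had the most negative difference, and it was smaller by the median over the cells of a batch than by the mean. Batch means were -0.080 in C1L, -0.13 in C1N, -0.10 in C1R, -0.038 in C2R and -0.050 in C3R, against -0.039 in P1, 0.033 in P2 and -0.0044 in P4. C2R lay above P1, so the groups overlapped, and the difference was -0.076 (95% interval -0.125 to -0.026, limma adjusted p = 0.0883). It passed limma's 5% without C2R (-0.086, adjusted p = 0.0387) and without P1 (-0.093, adjusted p = 0.0379), and with the C1 batches averaged (-0.060, adjusted p = 0.0382). Cells at least 0.2 above the culture median on chromosome 19 numbered 8 of 148 in C batches and 7 of 71 in P batches. Cells at least 0.2 below it numbered 4 of 148 in C batches and 0 of 71 in P batches (upper limit 4.23%, the share that 3 cells would make, as for the other upper limits not called exact). The high cells were high along the whole chromosome, by 0.37, 0.52 and 0.47 in the proximal, middle and distal parts in C cells and by 0.42, 0.62 and 0.61 in P cells. Culture cells held the same change in 2 of 22 cells, with parts at 0.37, 0.54 and 0.57. With the median over the cells of a batch in place of the mean, the difference was -0.023, and without the cells off the culture level on this chromosome it was -0.0064. The last value leaves cells out by the measure itself and carries no test.

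Chromosome 11, with segments gained in the line, was the remaining chromosome whose interval left out 0. Its level was 0.17 in C1L, 0.23 in C1N, 0.19 in C1R, 0.20 in C2R and 0.17 in C3R, against 0.14 in P1, 0.16 in P2 and 0.13 in P4. All C batches lay above all P batches, by 0.048 on average (95% interval 0.0040 to 0.092, limma adjusted p = 0.226, exact permutation p = 0.0357). Lung cells were more frequent among P members. In a fit of 10 batch by tissue means from the 8 batches, with tissue as a covariate and batch as a random block (C2R and P1 enter with both tissues), chromosomes 6 (0.086, limma adjusted p = 0.0044) and 11 (0.069, adjusted p = 0.0098) passed, while chromosome 19 fell to -0.023. Inside C2R, chromosome 6 was 0.65 in 4 lung cells and 0.57 in 30 blood cells, and chromosome 11 was 0.26 in lung and 0.19 in blood cells. Inside P1, chromosome 6 was 0.54 in 27 lung cells and 0.52 in 9 blood cells, and chromosome 11 was 0.14 in lung and 0.16 in blood cells.

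On some whole chromosomes C1R or C1N differed from the median of the other batches by more than the series differed from each other on any chromosome. In C1R, chromosome 10 averaged -0.16, against a median of -0.031 over the other batches, and 8 of its 15 member cells stood at least 0.2 below the culture (53.3%, exact Clopper-Pearson 95% interval 26.6% to 78.7%, counting error only). Those 8 cells lay between -0.35 and -0.22, and the other 7 averaged -0.0093. The loss covered the proximal part (-0.32 relative to the culture) and the middle part (-0.35) and was not seen in the distal part (0.039), a stretch that is already low in the line. CTC of the same batch showed it too, in 7 of 15 cells, with -0.41 in the proximal, -0.34 in the middle and 0.019 in the distal part. CTC of C1N held the same shape in 4 of 6 cells, at -0.31, -0.29 and 0.069 in the proximal, middle and distal parts, and among the other CTC 1 of 5 in C3R, 0 of 3 in C1L and 0 of 14 in C2R were this low. Of 22 culture cells 0 were this low (upper limit 13.6%). Among the members of the other batches 1 of 26 cells in C1L, 2 of 6 in C1N, 1 of 34 in C2R, 1 of 67 in C3R, 2 of 36 in P1, 2 of 25 in P2 and 2 of 10 in P4 were as low. The 6 P cells among them had the same shape, at -0.34, -0.31 and 0.14 in the proximal, middle and distal parts.

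C1N lay below the other batches on several chromosomes at once and above them on others, each value being relative to the cell's own autosomal median. It was the highest batch on, among others, chromosomes 4 (-0.0037), 6 (0.61), 11 (0.23), 14 (-0.30) and 18 (-0.29). Chromosome 3 averaged 0.16 there, against a median of 0.29 over the other batches, chromosome 13 stood at -0.15 against -0.041, and chromosome 16 at -0.18 against -0.037. The culture averaged 0.21 on chromosome 3, where 6 of its 22 cells stood at least 0.2 below its median, 0.0057 on chromosome 13 and -0.0013 on chromosome 16. CTC of C1N stood at 0.19 on chromosome 3, -0.22 on chromosome 13 and -0.20 on chromosome 16, near the members of their own batch. C1N had 6 members, and 1 of them was off the culture level on 13 of 20 chromosomes. Without that cell C1N averaged 0.22 on chromosome 3, near the culture mean, -0.14 on chromosome 13, -0.083 on chromosome 16 and -0.024 on chromosome 19. Another cell of C1N was lower than the culture by at least 0.2 on at least 4 of chromosomes 7, 10, 12, 13 and 16, a combination chosen after the values were seen. The same combination occurred in 4 of 6 CTC of C1N and in 0 of 22 culture cells, 0 of 71 P members and 0 of the CTC of the other batches. Chromosome 7 was at -0.32 in this member and from -0.28 to -0.25 in those 4 CTC, chromosome 10 at -0.23 and from -0.29 to -0.26, chromosome 12 at -0.19 and from -0.24 to -0.23, chromosome 13 at -0.25 and from -0.32 to -0.25, and chromosome 16 at -0.19 and from -0.30 to -0.27. The member lay outside the range of those 4 CTC on all 5 chromosomes, below it on chromosome 7 and above it on the other four. On chromosome 4 the member stood at 0.11 and those 4 CTC averaged 0.069, above the culture mean of -0.069.

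Chromosome 16 varied in both series. Cells at least 0.2 below the culture numbered 22 of 148 in C batches, present in all 5, and 9 of 71 in P batches, present in all 3. The culture held 1 such cell of 22. Across the proximal, middle and distal parts the low cells averaged -0.32, -0.34 and -0.37 in C batches and -0.38, -0.32 and -0.28 in P batches. By the exact permutation test of the share of cells off the culture level, 0 of 20 chromosomes differed between C and P batches after adjustment (0% called). The smallest unadjusted p was 0.0357, for chromosome 8, with a share of 9.95% ± 13.2 in C batches and 0.926% ± 1.60 in P batches (SD, n = 5 and 3), and its adjusted p was 0.714. Chromosomes off the culture level per cell averaged 1.72 ± 1.39 in C batches and 1.17 ± 0.380 in P batches (exact permutation p = 0.643), with C1N at 4 and C3R at 0.642 as the extremes. At least 1 such chromosome occurred in 80 of 148 C members, 34 of 71 P members and 14 of 22 culture cells.

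**Figure D2:**
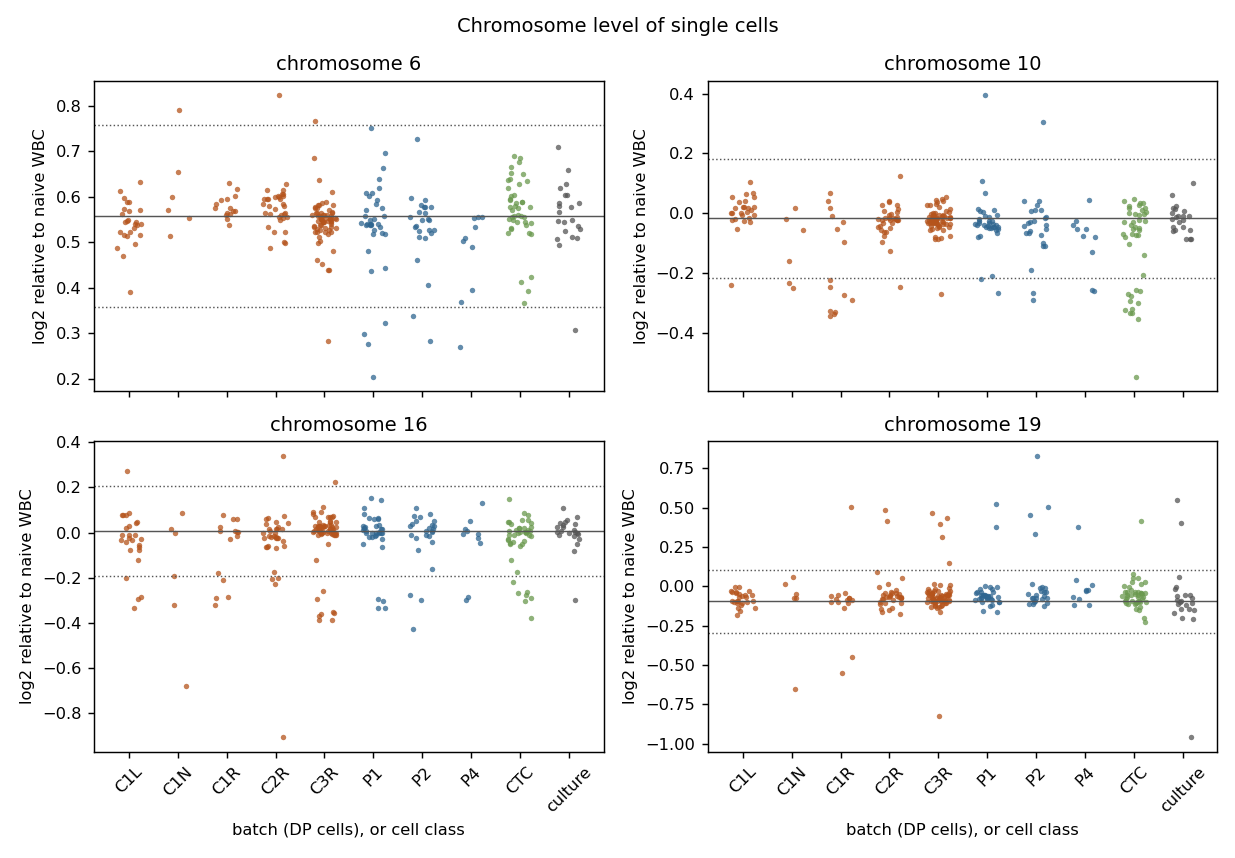
Level of chromosomes 6, 10, 16 and 19 in single cells (log2 relative to naive WBC), 1 point per cell, for the member DP cells of 5 C and 3 P batches, all CTC and the B16F10 culture. Solid lines mark the culture median and dotted lines 0.2 above and below it. On chromosome 10, 8 of 15 C1R cells form a low group, and on chromosome 6 the low member cells are mostly P cells (1 C, 7 P). PltLike cells, of which 3 of 24 were low on chromosome 6, are not shown.

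Segments that define the line were compared next, taking the runs of at least 10 bins in which the culture lay at least 0.3 from naive WBC. The 9 gained autosomal runs, 255 Mb in all, averaged 0.42 in C batches, 0.39 in P batches and 0.44 in the culture. The 18 lost runs, 380 Mb, averaged -0.36 in C batches, -0.34 in P batches and -0.39 in the culture. Differences between the series ran from -0.090 to 0.079 over these 27 runs, which were selected on the culture and not on this contrast. Groups stood apart without overlap in 4 of them, beside 463 of all 4376 single bins (4.57% with C above P and 6.01% with C below P). The gained run chr6:3705902-42759260 averaged 0.64 ± 0.0278 in C batches and 0.56 ± 0.0349 in P batches (SD, n = 5 and 3). The gained run chr11:49556287-69443168 averaged 0.31 ± 0.0371 in C batches and 0.25 ± 0.0248 in P batches. Lower in C batches were the lost runs chr10:92854304-100302821 (-0.34 ± 0.0583 in C, -0.26 ± 0.0124 in P) and chr19:16346035-23370639 (-0.37 ± 0.0456 in C, -0.28 ± 0.0285 in P). Coordinates are mm10 positions counted from 1.

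No run of 10 bins reached a C minus P difference of 0.2. At a limit of 0.1, chosen after the data were seen, there were 4 runs, described here without a test because the contrast itself chose them. The run chr12:17742574-24383592 stood at -0.20 ± 0.102 in C batches and -0.36 ± 0.0757 in P batches, with DP cells of the same batches at the host level (coverage median below 2.7) differing by 0.17. The run chr16:71718891-77632602 stood at -0.14 ± 0.0788 in C batches and -0.029 ± 0.0184 in P batches, and host-level DP cells differed by -0.024. In these 2 runs the C and P batches overlapped. The remaining 2 lay on distal X, chrX:127989099-146308474 (-1.69 ± 0.0814 in C, -1.52 ± 0.0807 in P) and chrX:156970735-164096906 (-1.67 ± 0.0723 in C, -1.55 ± 0.0584 in P). In both X runs every C batch lay below every P batch. Host-level DP cells differed in the same direction in these 2 runs, by -0.082 and -0.097, and by -0.050 and -0.064 without 1 host-level cell of C1L whose tumor score was 0.924. In the 4 non-overlapping runs of the line named above, all host-level cells differed by 0.048 (chromosome 6), 0.028 (chromosome 11), -0.032 (chromosome 10) and 0.0023 (chromosome 19).

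Bin by bin, 0 of 4376 bins passed limma's 5% false discovery rate (0% called), with 871 at an unadjusted p under 0.05. This count rested on C3R. Without C3R, 404 bins passed (9.23%), 208 higher and 196 lower in C batches. In the fit of batch by tissue means 157 passed (3.59%), 72 higher and 85 lower. With all 8 batches, every C batch lay above every P batch in 200 bins (4.57%) and below every P batch in 263 bins (6.01%). Chromosome 6 held 44 of the bins above and 1 of those below, chromosome 11 held 38 and 1, chromosome 19 held 0 and 37, and X held 2 and 37. Among the 404 bins called without C3R, 25 of 106 bins of chromosome 19 and 32 of 256 bins of X were lower in C batches, and 36 of 237 bins of chromosome 6 were higher.

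C3R carries the C label, and its profile was closest to those of the P batches. Its mean autosomal profile correlated with those of P1, P2 and P4 at Pearson r = 0.962 to 0.991 and with the other C batches at 0.911 to 0.945 (4120 bins, which share the altered chromosomes of the line). P batches correlated with each other at 0.953 to 0.982, the other C batches with each other at 0.904 to 0.960, and the other C with the P batches at 0.878 to 0.934. Cell by cell, 64 of 67 C3R members were closer to the mean of the P batches than to that of the other C batches. This share was 95.5% (exact Clopper-Pearson 95% interval 87.5% to 99.1%, counting error only, within 1 batch). Also closer to P were 1 of 26 cells in C1L, 0 of 6 in C1N, 0 of 15 in C1R and 0 of 34 in C2R. Among the P batches 36 of 36 cells in P1, 18 of 25 in P2 and 10 of 10 in P4 were closer to P. Each cell was set against means that left out its own batch.

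Of the CTC, 5 of 5 in C3R were closer to P, as were 2 of 3 in C1L, 0 of 6 in C1N, 4 of 15 in C1R and 0 of 14 in C2R. Culture cells were closer to P in 0 of 22 cases and PltLike control cells in 23 of 24. The running numbers in the cell identifiers moved with this pattern. They run from 682 to 1398 for the C1 and C2 batches, 1644 to 1785 for C3R, 1858 to 1881 for PltLike and 1930 to 2265 for the P batches, with 548 to 569 for the culture. What these numbers stand for is not given in the sources used here, and their part in the difference was not tested.

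**Figure D3:**
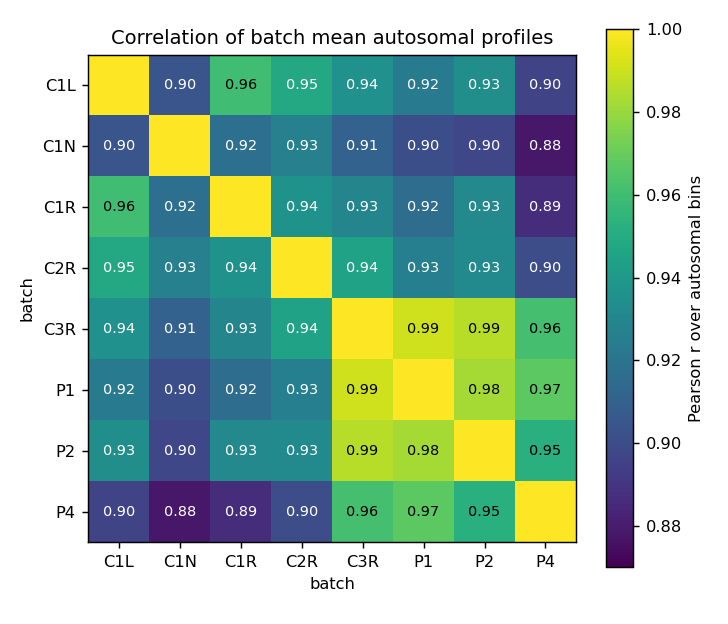
Pearson correlation between batch mean autosomal profiles of member DP cells, over 4120 bins. The block formed by C3R, P1, P2 and P4 holds values from 0.953 to 0.991, and the other C batches correlate with P batches at 0.878 to 0.934.

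The 177 DP cells at the host level, with a median tumor score of 0.027, allowed the same comparison in other cells of the same batches. They ran from 48 cells in P1 down to 3 in P2, and 1 of them, among the 10 of C1L, had a tumor score of 0.924. Across 4120 autosomal bins the C minus P difference of the members correlated with that of host-level DP cells at r = 0.634, a description of bins that share batches and base composition. The sign was the same in 407 of the 463 bins in which the member groups did not overlap and in 3167 of all 4376 bins. For the 404 bins called without C3R it was the same in 373. By chromosome the host-level difference was 0.028 for chromosome 6, 0.026 for chromosome 11 and -0.014 for chromosome 19, against 0.060, 0.048 and -0.076 in the members. After subtracting the host-level profile of each batch, 0 of 4376 bins passed limma (252 at an unadjusted p under 0.05), and chromosomes 6, 11 and 19 differed by 0.034, 0.030 and -0.051. The fit without subtraction also passed 0 bins (871 at an unadjusted p under 0.05). Subtraction was less precise, with a median 95% interval of a bin of 0.12 on either side, against 0.092 before. Without the high-scoring C1L cell the correlation was 0.625, the host-level difference of chromosome 6 was 0.017, and after subtraction 0 bins passed (278 at an unadjusted p under 0.05) and the 3 chromosomes differed by 0.044, 0.034 and -0.050. P minus C in the members also correlated with PltLike minus culture, at r = 0.537 over the same bins.

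**Figure D4:**
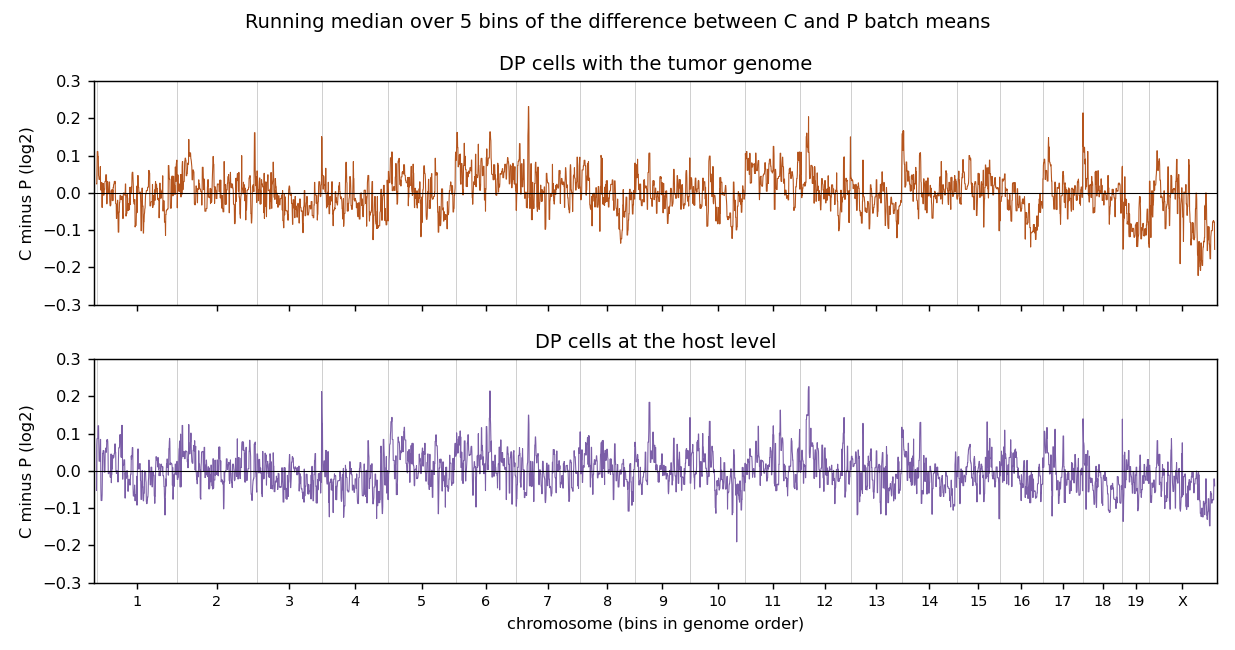
Running median over 5 bins of the C minus P difference between batch means (log2), with bins in genome order, for member DP cells with the tumor genome (upper) and DP cells at the host level of the same batches (lower). Chromosome 6 lies mostly above 0 and chromosome 19 below 0 in the upper panel, and many narrow peaks recur in the lower.

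The line is low on all of X and lowest on its distal part, chrX:109216701-171031299, a boundary taken from the culture by least squares. Distal X averaged -1.66 in C1L, -1.65 in C1N, -1.59 in C1R, -1.78 in C2R and -1.65 in C3R, against -1.57 in P1, -1.61 in P2 and -1.48 in P4. P batches lay nearer the host level, with C1R inside their range (difference -0.11, exact permutation p = 0.0714). The overlap rests on 1 of the 15 C1R cells, at -0.79, where the next highest stood at -1.45. Single cells also stood apart in C1L (-2.40) and P4 (-1.10). No test was made without these cells. The culture stood at -1.83 and PltLike at -1.60. Host-level DP cells, without the high-scoring C1L cell, differed by -0.035.

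Inside that chromosome, Il1rapl1, a very large gene for a synaptic adhesion protein, holds the bin chrX:87239364-87785367, singled out because earlier results of these data showed it nearly empty in the line. Its coverage over the autosomal median, as log2 without naive WBC, was -2.44 in C1L, -2.44 in C1N, -2.44 in C1R, -3.39 in C2R and -2.30 in C3R, against -2.08 in P1, -2.18 in P2 and -1.80 in P4. Every C batch lay below every P batch (difference -0.58, exact permutation p = 0.0357, the smallest possible, and 0.214 adjusted over 6 values). The culture stood at -3.36, CTC of the 5 C batches from -3.07 to -2.32 and PltLike at -2.22. In linear terms the ratio had a median of 0.174 over C members, 0.239 over P members and 0.0983 over culture cells, where 1 would be the autosomal level. In C2R 1 of 34 cells had a ratio of 0.0029, which lowers its log2 mean, and the lowest of its other cells stood at 0.066. By its median ratio of 0.111, too, C2R was the C batch nearest the culture. Without C2R the difference was -0.39 (exact permutation p = 0.0571, the smallest possible with 4 C batches). Ratios above 0.249, the highest CTC value, occurred in 7.69% of members of C1L, 16.7% of C1N, 6.67% of C1R, 0% of C2R (exact 95% upper bound 10.3%) and 26.9% of C3R, against 36.1% of P1, 40.0% of P2 and 70.0% of P4. Host-level DP cells lay near the autosomal level, with batch means averaging -0.0031 in C batches and 0.13 in P batches, a difference of -0.14, or -0.083 without the high-scoring C1L cell.

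**Figure D5:**
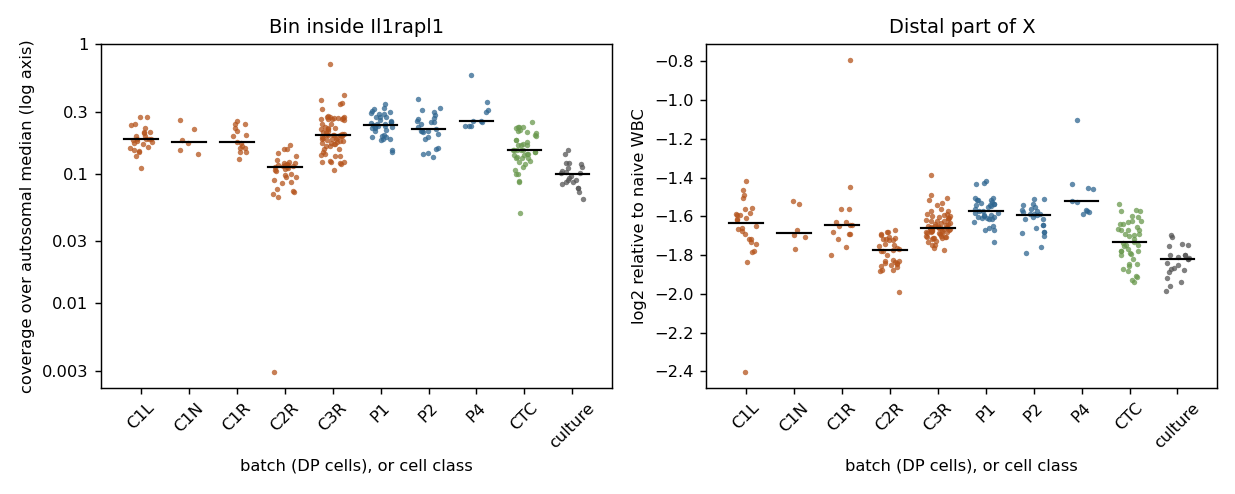
Left: coverage of the Il1rapl1 bin over the autosomal median in single cells, on a log axis. Right: distal X level (log2 relative to naive WBC). Points are cells, bars are medians, and P batches lie above the C batches in the left panel, with batch means of log2 from -3.39 to -2.30 in C and from -2.18 to -1.80 in P.

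Genes of 4 lists, chosen with earlier results of these data known, were read from the bin over their midpoint, and 64 of 66 had a tested bin. By limma 0 of 64 passed, as did 0% of all bins, with list medians of -0.018 for 14 melanocyte lineage genes, 0.0013 for 20 growth signalling genes, 0.0022 for 20 cell cycle and tumor suppressor genes and -0.011 for 10 mitosis genes. The median over all bins was 6.8e-05. Without C3R, 9 of 64 passed (against 9.23% of all bins), namely 4 melanocyte, 1 growth signalling, 4 cell cycle and 0 mitosis genes.

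The melanocyte genes with the widest gaps were Kitl, Mlana and Tyrp1. Kitl, the ligand of the receptor Kit that melanocyte precursors need, stood at -0.33 in C1L, -0.12 in C1N, -0.33 in C1R, -0.26 in C2R and -0.11 in C3R, against -0.048 in P1, -0.16 in P2 and 0.026 in P4. C1N and C3R overlapped with P2 (difference -0.17, SE 0.0586, limma adjusted p = 0.158). Mlana, which encodes a protein of the pigment granule, was 0.16 in C1L, 0.022 in C1N, 0.074 in C1R, 0.11 in C2R and 0.18 in C3R, against 0.25 in P1, 0.27 in P2 and 0.21 in P4, with no overlap (limma adjusted p = 0.129). Tyrp1, an enzyme of melanin synthesis, was 0.29 in C1L, 0.25 in C1N, 0.22 in C1R, 0.22 in C2R and 0.087 in C3R, against 0.10 in P1, 0.12 in P2 and 0.065 in P4. C3R fell inside the P range and the other C batches above it. Without C3R all 3 bins passed limma, Kitl at -0.20 (adjusted p = 0.0425), Mlana at -0.15 (adjusted p = 0.0354) and Tyrp1 at 0.15 (adjusted p = 0.0294). These genes were named for the size of this same difference, and C3R was the C batch nearest the P batches at all 3. Passing without it is therefore a description and not separate support. Host-level DP cells differed by -0.12 at Kitl, -0.061 at Mlana and, in the opposite direction to the members, -0.084 at Tyrp1. After the host-level profile was subtracted the members differed by -0.048 at Kitl, -0.075 at Mlana and 0.20 at Tyrp1.

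Among the growth signalling and cell cycle genes Mapk3 had the widest gap. Mapk3, a MAP kinase downstream of Braf, was 0.097 in C1L, -0.063 in C1N, 0.087 in C1R, 0.069 in C2R and -0.0043 in C3R, against -0.12 in P1, -0.089 in P2 and -0.13 in P4. It had the lowest adjusted p of the listed genes (difference 0.15, SE 0.0431, limma adjusted p = 0.119), and the groups did not overlap. Braf, a kinase of the same cascade on chromosome 6, differed by 0.089 (SE 0.0399), beside the 0.060 of the whole chromosome. Cdkn2a and Cdkn2b, neighbouring inhibitors of cell cycle kinases in 1 bin of chromosome 4, stood at -0.13 in C1L, -0.096 in C1N, -0.10 in C1R, -0.22 in C2R and -0.0016 in C3R, against 0.0013 in P1, -0.014 in P2 and 0.047 in P4. C3R again lay among the P batches, and the host-level DP cells of these batches differed by -0.12 at this bin, as the members did (-0.12). Ccnd1, a cyclin of the first growth phase, differed by 0.096 (SE 0.0401), and Incenp, a scaffold of the mitotic Aurora B complex, by -0.12 (SE 0.0511), where limma's adjusted p was 0.210 and 0.204. After subtraction of host-level cells the members differed by 0.13 at Mapk3, 0.046 at Braf, 0.049 at Ccnd1 and -0.054 at Incenp.

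In tumor score and in distance from the culture the series did not differ by more than the spread between batches. Correlation and the Il1rapl1 bin placed the C batches nearer the culture. By correlation 22 of 22 culture cells were closer to the mean of the C batches (median r 0.819) than of the P batches (0.781). These cells are 1 culture batch, set against means of 5 C and of 3 P batches. The count is a description, and its dependence on the number of batches averaged was not tested. At the Il1rapl1 bin every P batch lay farther from the culture than every C batch. The C minus P difference at this bin had exact permutation p = 0.0357, and 0.214 after adjustment. The tumor score averaged 0.958 ± 0.0403 in C batches and 0.917 ± 0.0408 in P batches (SD, n = 5 and 3, exact permutation p = 0.214), with C1N at 0.892 and P4 at 0.873 the lowest of each. The root mean square distance from the culture profile was 0.152 ± 0.0232 in C batches and 0.151 ± 0.00669 in P batches (exact permutation p = 1.00). Within C batches it ran from 0.126 in C2R to 0.184 in C1R, a range that took in all P values, 0.143 to 0.156. Tissue could be compared inside C2R and P1. The mean score was 1.06 in 4 lung and 0.994 in 30 blood cells of C2R, and 0.923 in 27 lung and 0.927 in 9 blood cells of P1.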

How the data were processed

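Single-cell DNA libraries of 648 cells were used as the authors deposited them, as a normalised coverage signal over 4880 bins (median 538 kb) of mm10 from a Ginkgo table. Per the submitters' processing notes the series used BWA, SAMtools, Picard and Trim Galore, beside HISAT2 and featureCounts, tools for RNA. How the coverage was normalised and scaled and why it stops at 10 in most cells is not given in the sources used here. A deposited cell table gave class, tissue and batch and holds no numeric readout per cell, so no test of other readouts was made. Bins that stood at 10 in 1% of cells or more were dropped (304 autosomal, 34 X), 4120 autosomal and 256 X bins were tested, and 166 Y bins were not.

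Values became log2(signal + 0.1) minus the autosomal median of the cell and minus the naive WBC mean. Means per batch (at least 3 cells) of bins and of chromosome medians were fitted with limma 3.58.1 (lmFit, eBayes, R 4.3.3) and adjusted by Benjamini-Hochberg over 4376 bins or 20 chromosomes at 5%. Single values had two-sided exact permutation tests over batches, adjusted over 6. The score is a slope with intercept, fitted per cell over autosomal bins with the culture profile as predictor. Other tools were scipy 1.17.1, numpy 2.4.6, pandas 2.3.3, matplotlib 3.10.9 and Python 3.11.15. In simulated data the bin test recovered 69% of differences of 0.2 and 99% of 0.5 over 4376 bins, with 11 false calls. Simulated noise was independent between bins, so these rates need not carry over.

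The members, gene lists and most tests were chosen with earlier results of these data known. Named genes are the 5 per direction with the largest difference among 66 listed genes, and any that passed, of which 1 is not reported here. Gene positions come from a RefSeq table of GRCm38.p6. Alternatives were leave-one-out of batches, tissue, cell minimum, window, pseudocount, ceiling, centring, weights, noise, score and, added after the data were seen, subtraction of host-level DP cells (also without 1 cell with a tumor score above 0.5), the run limit of 0.1 and the tests of chromosomes off per cell, the Il1rapl1 bin and distal X.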

Additional observations from a re-analysis of the deposited data

Results flagged for a closer look

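Among the 5 C batches 36 values were searched for a batch far from the others, by the gap to its nearest neighbour over the whole range, and 2 batches stood out. Chance marks about 1 value in 20. Chromosome 14 was -0.30 in C1N, against -0.36 in the nearest C batch and -0.38 at the other end. C1N had 6 cells, and without the cell that was off the culture level on 13 chromosomes (-0.15 on chromosome 14) it averaged -0.32. At the Il1rapl1 bin C2R stood at -3.39, against -2.44 in the nearest C batch and -2.30 at the other end, close to the culture (-3.36). Of its 34 cells, 1 had a ratio of 0.0029, which lowers this mean, and the lowest of the others was 0.066.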

How the results depend on the processing

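Of 507 values under alternative settings 463 kept direction and side of the threshold, 11 became weaker, 18 stronger, 8 reversed and 7 moved. Bins past the test numbered 0 to 404 when a batch was left out, with 404 without C3R and 0 without any other (limma, 479 to 831 at an unadjusted p under 0.05), and 157 with tissue as a covariate. Chromosomes past it numbered 0 to 1 when a batch was left out, with 1 (chromosome 19) without C2R or without P1, 2 (chromosomes 6 and 11) with tissue as a covariate and 2 (chromosomes 6 and 19) with the C1 batches averaged into 1 and the C2 and C3 batches kept. The difference in bin noise was -0.020 in the full set (exact permutation p = 0.107, or 0.214 adjusted over 6 values). It reached exact permutation p = 0.0357 with bins at the ceiling kept (-0.022) and in cells below the median noise (-0.011). In the latter setting the measure under test also chose the cells. The distance from the culture, 0.0013 in the full set, ran from -0.0065 to 0.0079 when a batch was left out and was -0.0089 with the C1 batches averaged. Chromosomes off per cell differed by -0.025 to 0.815 when a batch was left out, and by -0.025 without C1N. The Cdkn2a and Cdkn2b bin stood at 0.0031 after host-level cells were subtracted, and at -0.0033 without the high-scoring C1L cell among them. The Il1rapl1 bin kept its direction in all 20 alternatives (-1.17 to -0.39) and missed 5% in 11. The 8 of these that leave out a batch could not reach it, for want of splits. Nor could blood cells only or the C1 batches averaged. For these changes the cause was not tested. Depth per cell is unknown, and 3 P batches limit every comparison. The median 95% interval of a bin spans 0.092 on either side.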
